A study of Mus musculus with 3 samples.

Results

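The NK_T cluster is 1 of the clusters of immune cells named in a single-cell RNA-sequencing study of mouse melanoma, and it held 222 of the 12670 cells of the series. Its members are the cells that the authors' deposited cell table assigns to NK_T, a rule that was applied without change. They came from 3 tumors, with 25 cells from the untreated, 180 from the regressed and 17 from the progressed tumor. A smaller neighbour, NK_T_Cytolytic, held 97 cells (15, 58 and 24 in the same order) and is the cluster most like it.

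All 3 tumors arose in C57BL/6 mice that carried the Cre driver Tyr.CreER, the conditional allele Braf LSL.V600E and a Rosa26 LSL.tdTomato reporter, and 4-OH tamoxifen on the skin started them. The CreER transgene is driven by the tyrosinase promoter, which is active in melanocytes, so the edits are aimed at melanocytes and not at lymphocytes. One mouse was untreated, one carried a tumor that had regressed under vemurafenib, an inhibitor of the mutant Braf kinase given by oral gavage, and one a tumor that had progressed under it. Each condition is 1 tumor of 1 mouse, so tumor, animal and treatment cannot be told apart, and no test between conditions was possible. Sex differed as well: Xist, which coats the silenced X chromosome of females, was counted 238 times in untreated, 0 times in regressed and 179 times in progressed NK_T cells.

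T cells recognise antigen through a T cell receptor, whose signal is carried into the cell by the CD3 chains. Natural killer (NK) cells and innate lymphoid cells (ILCs) lack that receptor, and NK cells kill through perforin and granzymes under the control of activating and inhibitory receptors. Skin is rich in lymphocytes that stay in the tissue, among them gamma-delta T cells, regulatory T cells marked by Foxp3, and group 2 ILCs marked by Gata3, the interleukin-33 receptor Il1rl1 and the interleukin-7 receptor Il7r. Genes of the T cell receptor constant regions matched no feature of the tables by symbol and were not analysed here, so alpha-beta and gamma-delta receptors could not be separated directly.

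Expression is given as CPM, the summed unique molecular identifiers (UMIs, tags that let each captured molecule be counted once) of a gene over all UMIs of a group of cells, multiplied by 1000000. Intervals in brackets are exact 95% intervals (Clopper-Pearson for shares, Poisson for CPM, conditional binomial for log2 ratios). They cover counting error only, not the spread between animals. A gene at 0 UMIs in a group was set to 3 UMIs over that group, which turns its ratio into a bound.

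The 25 untreated NK_T cells held 121000 UMIs with a median of 4087 per cell, the 180 regressed cells 538280 with a median of 2652.5, and the 17 progressed cells 97338 with a median of 3900. The regressed library was shallower as a whole, where the median cell held 2658 UMIs, than the untreated (4496) and the progressed (4566) libraries. Free RNA also differed between the libraries. Haemoglobin genes summed to 33.1, 1884 and 0 CPM in untreated, regressed and progressed NK_T cells, and to 43.8, 1845 and 0.79 CPM in the macrophages of the same tumors. Mast cell and epidermal genes followed the same order, with 680 and 1187 CPM in regressed NK_T cells and 612 and 1006 CPM in regressed macrophages.

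NK_T made up 2.37% (1.54 to 3.48) of the 1053 immune cells of the untreated tumor, 18.8% (16.4 to 21.4) of the 957 of the regressed tumor and 2.49% (1.46 to 3.96) of the 683 of the progressed tumor. The regressed interval lies above both others, and the untreated and progressed intervals overlap. Of all cells the shares were 0.611%, 4.83% and 0.351%. Within the pair of lymphoid clusters NK_T was the larger in the untreated tumor, 62.5% (45.8 to 77.3), and in the regressed tumor, 75.6% (69.7 to 80.9), and took 41.5% (26.3 to 57.9) in the progressed tumor. Collagenase and trypsin digestion came before capture and can set such shares.

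The label was checked against the 6 markers given with it, in the regressed tumor, where most of the cells lie. Cd3e, a CD3 chain, had a UMI in 60.6% of NK_T cells and in 2.78% to 10.5% of the cells of the 5 myeloid clusters (Macrophages, Monocytes1, Monocytes2, Neutrophils and Mastcells). Icos, a costimulatory receptor of T cells and ILC2, was found in 46.1% against 0% to 5.26%. Gzmb, encoding granzyme B, was found in 21.1% against 0.926% to 2.83%, and Klrg1, an inhibitory lectin-like receptor, in 14.4% against 0% to 0.943%. Il17a had a UMI in 6.67% of the cells and Gzma in 4.44%, against 0% to 1.75% and 0% to 0.699%. All 6 markers were thus more frequent than in the myeloid clusters, and all but Cd3e were found in a minority of the cells. Thinned to 1000 UMIs, where macrophages of this tumor held 0% Icos and Klrg1 and 1.09% Gzmb, the NK_T shares were 27.4% for Icos, 14.3% for Gzmb and 8.93% for Klrg1. B cell genes summed to 8.26, 22.3 and 10.3 CPM over the 3 tumors.

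Against the mean of the 5 myeloid clusters in the regressed tumor, the 10 genes that stood out most were Cxcr6 (63.1-fold), Cd2 (62.2-fold), Icos (57.5-fold), Ctla4 (54.8-fold), Cd6 (49.1-fold), Gzmb (47.2-fold), Lck (45.8-fold), Ms4a4b (40.4-fold), Cd163l1 (39.6-fold) and Bcl11b (38.1-fold). Cxcr6 is a chemokine receptor of tissue-resident lymphocytes, Lck the kinase that starts T cell receptor signalling, Bcl11b a transcription factor of T cells and ILC2, and Cd163l1 (also known as Scart1) a scavenger receptor known from gamma-delta T cells. These folds describe the cluster, because the clusters were built on the same genes.

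The 2 lymphoid clusters differed in how many cells had CD3 and in how much. A UMI of Cd3d, Cd3e or Cd3g was found in 18 of 25 untreated (72.0%, 50.6 to 87.9), 152 of 180 regressed (84.4%, 78.3 to 89.4) and 15 of 17 progressed NK_T cells (88.2%, 63.6 to 98.5), and in every NK_T_Cytolytic cell of each tumor. In macrophages, which should lack CD3, the shares were 1.60%, 14.7% and 3.83%, at median depths of 3429, 1388 and 3450 UMIs. After thinning each cell to 1000 UMIs the NK_T shares were 60.0%, 80.4% and 82.4% and those of macrophages 0.329%, 10.9% and 0.602%. The thinned share of NK_T_Cytolytic was again 100% in each tumor. The NK_T intervals of the 3 tumors overlap, and in the regressed tumor the NK_T interval lies below that of NK_T_Cytolytic (93.8 to 100).

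Per cell the separation was wider. The median NK_T cell held 2.43, 2.28 and 2.61 CD3 UMIs per 1000 in the untreated, regressed and progressed tumor, against 19.4, 13.5 and 15.8 in the median NK_T_Cytolytic cell. In the untreated tumor the groups did not overlap, with a highest NK_T cell of 6.42 and a lowest NK_T_Cytolytic cell of 8.47 per 1000. In the regressed tumor the highest NK_T cell reached 12.5 and the lowest NK_T_Cytolytic cell 2.55, and in the progressed tumor these were 11.7 and 4.89, so the ranges overlapped there. Cd3g (9:44969572-44980431 on GRCm38, beside Cd3d and Cd3e) had 1231 CPM (1042 to 1446) in untreated, 1208 CPM (1116 to 1304) in regressed and 1449 CPM (1219 to 1708) in progressed NK_T cells. In NK_T_Cytolytic it had 10544, 8335 and 7252 CPM.

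**Figure D1:**
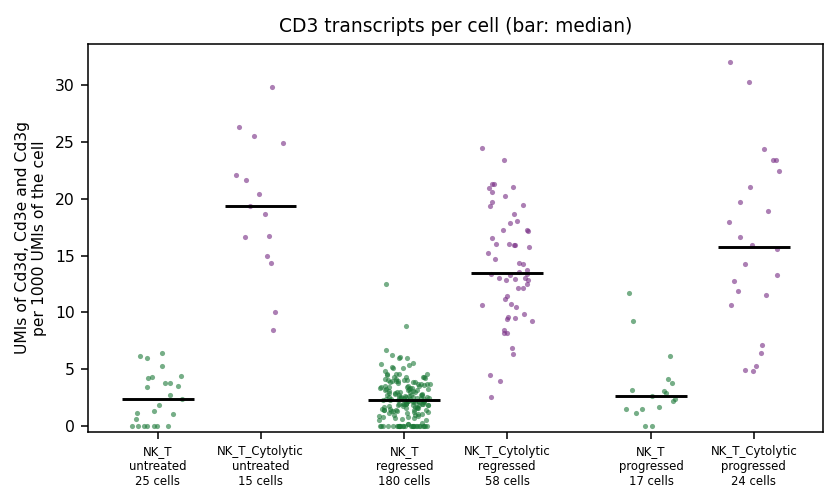
CD3 UMIs (Cd3d, Cd3e and Cd3g summed) per 1000 UMIs in each cell of NK_T and NK_T_Cytolytic, by tumor, with 1 point per cell and a line at the median. NK_T medians lie at 2.43, 2.28 and 2.61, below all NK_T_Cytolytic medians, and cells of both clusters overlap in the regressed and progressed tumors but not in the untreated one.

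NK_T was next compared with NK_T_Cytolytic inside the regressed tumor, where both clusters share 1 library. Of 2358 genes with at least 20 UMIs and 100 CPM in the higher cluster, 9.08% were at least 2-fold higher in NK_T and 13.1% at least 2-fold lower, and the median log2 ratio of all of them was -0.08. These were 214 and 308 genes, and TMM scaling, which shifts every ratio up by 0.16, gave 275 and 264. Counts of list members below are read beside those shares. They describe the 2 clusters, which were built on the same genes.

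The genes higher in NK_T included receptors and factors that T cells share with ILCs. Il7r (15:9506159-9529941 on GRCm38), which receives the survival signal of interleukin-7, had 231 CPM (154 to 334), 721 CPM (651 to 796) and 236 CPM (150 to 355) in the 3 tumors and 0 UMIs in all 97 NK_T_Cytolytic cells, which made it at least 46.8-fold higher in the regressed tumor. Rora, a transcription factor needed for ILC2 development, was counted 180 times against 2 (log2 ratio 5.02, 3.15 to 8.08). Icos was counted 219 times against 1 (6.31, 3.81 to 11.62) and the chemokine Ccl5 370 times against 2 (6.06, 4.20 to 9.12).

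The other genes among the 10 with the highest ratio were Ms4a4b, Ly6c2, Cd5, Dennd2d, Tnfrsf4 and Plaat3, at log2 ratios of 6.37, 5.49, 4.99, 4.93, 4.78 and 4.58. Cd5 is a receptor that dampens T cell receptor signalling, and Tnfrsf4 (OX40) a costimulatory receptor. The 10 lowest were Avil (at most -6.84), Trpm6 (-6.55), Klrb1b (-6.07), Rasl11b (-5.99), Gm38414 (-5.86), Ctnnd2 (at most -5.71), Kir3dl1 (at most -5.58), Tmem121 (-5.55), Col27a1 (-5.50) and Cntn1 (-5.41). Klrb1b and Kir3dl1 belong to families of NK cell receptors, and Klrb1b was counted 4 times in 180 NK_T cells and 97 times in 58 NK_T_Cytolytic cells.

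Of 17 measured genes of the CD3 complex and T cell signalling, 15 passed the floor, 4 were at least 2-fold higher and 5 at least 2-fold lower in NK_T, with a median log2 ratio of -0.39. The lower ones were 4 chains of the CD3 complex, with Cd3g at -2.79 (-2.92 to -2.65), Cd3e at -2.69, Cd247, the zeta chain, at -2.26 and Cd3d at -1.73, and Thy1, a surface glycoprotein of T cells and ILCs, at -1.32. Downstream the adaptor Lat (-0.05), the adhesion receptor Cd2 (-0.02) and the kinase Lck (-0.39) differed by less than 2-fold. Costimulation went the other way: Cd28 stood at 2.50 and Cd6 at 3.93, and Cd4, the coreceptor for MHC class II, was at least 7.84-fold higher, with 65 UMIs against 0.

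Of 18 measured NK receptors and factors 6 passed the floor, none of them was at least 2-fold higher and 5 were lower, at a median of -1.89. Klrd1, the CD94 chain that pairs with NKG2 receptors, had 306, 186 and 216 CPM in untreated, regressed and progressed NK_T cells and 1067, 1525 and 1001 CPM in NK_T_Cytolytic. The log2 ratio in the regressed tumor was -3.04 for Klrd1, -1.77 for Klrk1 (NKG2D) and -3.83 for Cd244a (2B4). Ncr1, encoding the activating receptor NKp46, was below the floor in CPM and went the other way, with 8, 36 and 0 UMIs in NK_T and 0 UMIs in NK_T_Cytolytic in every tumor.

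The 14 cytotoxic effectors split by gene: of 8 past the floor, 4 were higher and 4 lower, at a median of 0.54. Perforin (Prf1), which opens the target membrane, had 8.26, 35.3 and 20.5 CPM in NK_T over the 3 tumors against 937, 709 and 680 CPM in NK_T_Cytolytic, and the granule gene Nkg7 802, 524 and 966 CPM against 5858, 4191 and 3472 CPM. The log2 ratio in the regressed tumor was -4.33 for Prf1 and -3.00 for Nkg7. In contrast Gzmb had 1347 CPM (1148 to 1571), 394 CPM (343 to 451) and 1120 CPM (919 to 1351) in NK_T and 52.1, 56.5 and 49.4 CPM in NK_T_Cytolytic, with a log2 ratio of 2.80 in the regressed tumor. In the progressed tumor 105 of the 109 Gzmb UMIs of NK_T lay in 1 cell, which left 4 UMIs in the other cells, as many as in NK_T_Cytolytic. Gzma was at 0 UMIs in NK_T_Cytolytic throughout, at 0 in untreated NK_T cells, and at least 11.1-fold higher in regressed NK_T cells, where the bound on the log2 scale was 3.47 with and 2.90 without the cell that held most of it.

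Most regulatory T and type 2 genes past the floor were higher in NK_T, while type 17 genes were divided. Of 12 regulatory T genes 8 passed the floor, 5 were higher and 1 lower (median 1.84), with Foxp3, the factor that defines the lineage, counted 63 times against 0 (at least 7.60-fold) and the inhibitory receptor Ctla4 144 times against 0 (at least 17.4-fold). Of 16 type 2 and ILC2 genes 6 passed, 5 were higher and none lower (median 3.51), among them Rora and Il7r as given above, Il1rl1 at 3.69 and Gata3 at 1.87. Among 12 type 17 genes 4 passed, 1 was higher and 1 lower. Il17a, below the floor in CPM, was counted 41 times against 0, at least 4.94-fold higher. For the gamma-delta list only 6 of 14 genes were measured and 2 passed, Maf at 3.86 being the higher one.

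Homing genes divided as well. Of 14 residency and homing genes 5 passed the floor, 3 of them higher and 1 lower, at a median of 1.43. Ccr2, the receptor for Ccl2, stood at 3.68 and Cxcr6 at 1.43. S1pr1, which guides lymphocytes out of tissue and was below the floor in CPM, was at least 4.70-fold higher, and Itgae, the integrin chain CD103 that binds epithelial cadherin, was lower at -1.56. Of 12 cytokine receptors 8 passed, 2 were higher and 2 lower, at a median of -0.12. Il12rb2, the chain that makes cells responsive to interleukin-12, was lower at -4.71. Of 13 activation and checkpoint genes 8 passed, 4 were higher and 1 lower, at a median of 1.22. Cd69, an early activation marker that also holds cells in tissue, stood at 2.45 (1.36 to 3.80), Cd44 at -0.00 and the inhibitory receptor Lag3, below the floor in CPM, at -2.11.

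**Figure D2:**
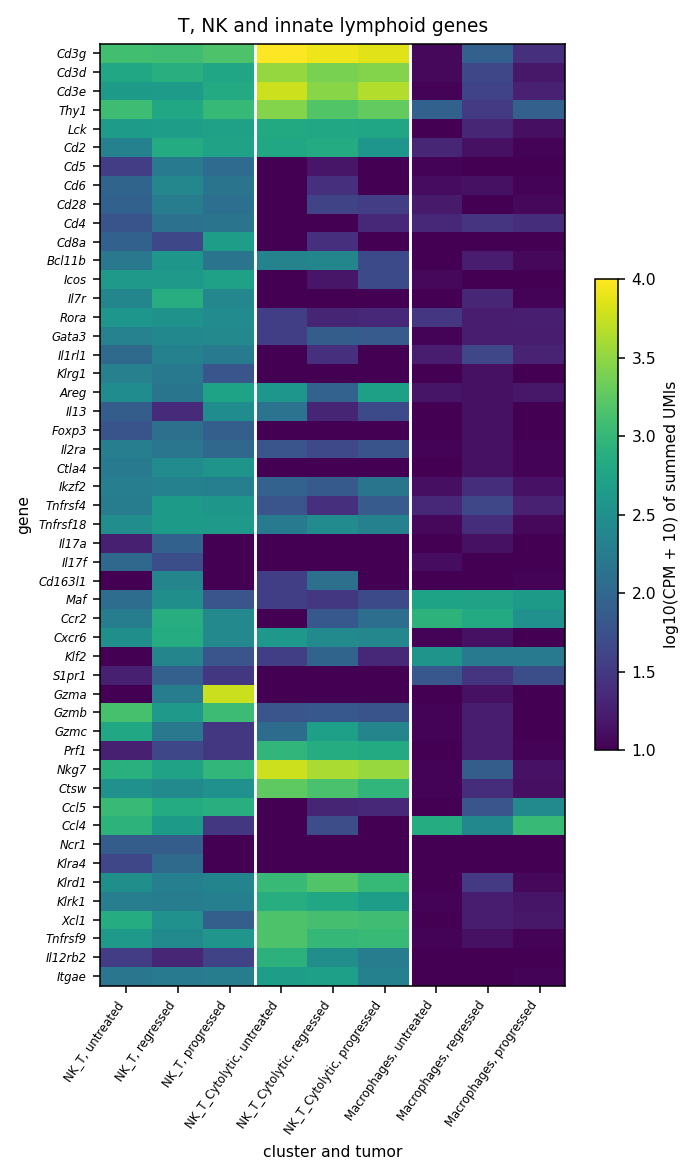
Levels of T, NK and innate lymphoid genes (rows) in NK_T, NK_T_Cytolytic and Macrophages of each tumor (columns), colored by log10 of CPM + 10 of the summed UMIs. CD3 genes are present in both lymphoid clusters and stronger in NK_T_Cytolytic, Il7r, Icos, Foxp3 and Ctla4 are at or near the lowest color outside NK_T, and Prf1 and Nkg7 are strongest in NK_T_Cytolytic.

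NK_T was itself mixed, and the genes that separate lymphoid types marked small groups of its cells. In the regressed tumor 72 of 180 cells had a UMI of Gata3, 44 of Cd4, 35 of Foxp3, 17 of Il17a or Il17f, 13 of Ncr1, 11 of Cd8a or Cd8b1 and 8 of Il13 or Il5. A cell with 0 UMIs of a gene may still express it at this depth, and the cells with none of the genes counted in this way had a median of only 1963 UMIs. The companion genes named in the following paragraphs were chosen after their values were seen, and are given as descriptions.

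**Figure D3:**
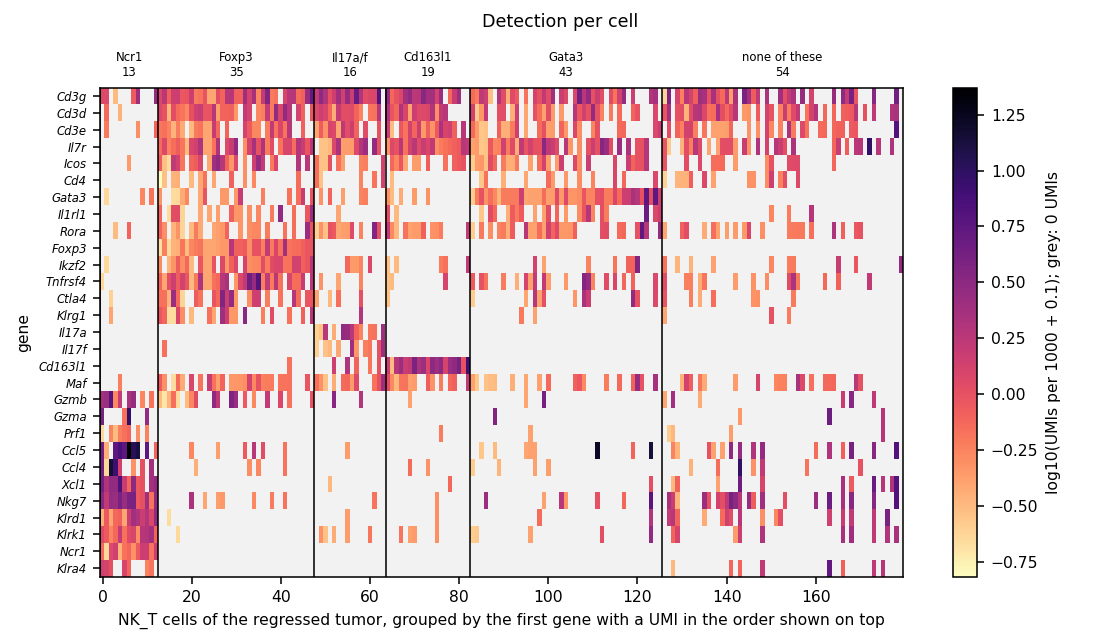
Detection of lymphoid genes (rows) in each of the 180 regressed NK_T cells (columns), colored by log10 of UMIs per 1000 + 0.1, with grey for 0 UMIs. Cells are grouped by the first gene with a UMI in the order Ncr1 (13 cells), Foxp3 (35), Il17a or Il17f (16), Cd163l1 (19), Gata3 (43) and none of these (54), and Klrd1 and Klrk1 are detected throughout the Ncr1 group while its Il7r row is grey.

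All 35 regressed cells with a Foxp3 UMI also had a CD3 UMI. Ctla4 was found in 65.7% of them and in 16.6% of the other 145 cells, Ikzf2 (Helios) in 88.6% against 19.3%, Tnfrsf4 in 91.4% against 27.6% and Izumo1r, the folate receptor 4 of regulatory T cells, in 54.3% against 4.14%. The median depths of 2779 and 2618 UMIs were close. The same cells also held genes that are better known from ILC2 and tissue repair: Il1rl1 in 51.4% against 18.6%, Klrg1 in 54.3% against 4.83%, and the epidermal growth factor ligand Areg in 25.7% against 5.52%. Gzmb was found in 51.4% of Foxp3 cells and in 13.8% of the rest.

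Of the 72 cells with a Gata3 UMI, 61 had a CD3 UMI and 11 had none, and the median depths were 2874.5 UMIs with and 2507 UMIs without Gata3. Il1rl1 was found in 41.7% of Gata3 cells against 13.9% of the others, Il7r in 80.6% against 63.9% and Areg in 16.7% against 4.63%. Il13, the type 2 cytokine, was counted in 6 cells, all with a Gata3 UMI. In the untreated tumor 10 of 25 and in the progressed tumor 12 of 17 cells had a Gata3 UMI.

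Il17a and Il17f (1:20730905-20734496 and 1:20777146-20785274 on GRCm38) were found together or alone in 17 regressed cells, 16 of which had a CD3 UMI, at a median depth of 3063 UMIs against 2614. The other genes in those cells were Maf in 70.6% against 45.4%, the kinase Blk in 29.4% against 3.07% and Cd163l1 in 29.4% against 12.3%. Cd4 was found in 35.3% of them against 23.3%. Cd163l1 itself had a UMI in 25 regressed cells, 24 of them with CD3, and in 0 of 25 untreated and 0 of 17 progressed cells. Its level of 221 CPM (183 to 265) in the regressed tumor stands against 0 UMIs in the other tumors, which allow up to 24.8 and 30.8 CPM at 3 UMIs, and it was also found in NK_T_Cytolytic, at 26.0, 118 and 0 CPM.

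The 13 regressed cells with an Ncr1 UMI stood apart from the rest by NK receptors and killing genes, at median depths of 2947 and 2620 UMIs. Klrk1 and Klrd1 were found in all 13, Xcl1, a chemokine for dendritic cells, in 12, and Klrb1c (NK1.1) in 10 against 1 of the other 167 cells. Prf1 was found in 61.5% of them and in 3.59% of the others. Il7r was found in none of the 13 and in 76.0% of the others. CD3 was detected in 7 of the 13 cells. Of the 5 untreated cells with an Ncr1 UMI, Gzmb was found in 5, CD3 in 4, and Prf1 and Gzma in 0.

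The 152 regressed NK_T cells with a CD3 UMI were compared with the 28 without one. Median depths were 2769.5 and 2075.5 UMIs, so that some of the 28 may have lost CD3 to sampling. Of 1381 genes past the floor 14.8% were at least 2-fold higher and 1.74% at least 2-fold lower in the CD3-positive cells, at a median log2 ratio of 0.33. The floor was mostly reached through the larger CD3-positive group, which bears on that imbalance.

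T cell genes were on the CD3-positive side. Of 14 genes of the T cell list other than the 3 that set the groups, 12 passed the floor, 7 were higher and none lower. Cd2 was counted 362 times in CD3-positive and 6 times in CD3-negative cells (log2 ratio 2.95, 1.81 to 4.41), Lat 350 against 13 times (1.79) and Cd4 64 against 1 times (3.04). The median over the list was 1.46. Of 8 regulatory T genes past the floor 4 were higher and none lower, at a median of 1.15, with Ctla4 at 4.20 (1.69 to 9.51) and Tnfrsf4 at 2.84. Foxp3 was counted 63 times against 0, and Cd40lg, the helper signal to B cells and dendritic cells, 68 times against 0.

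In the regressed tumor the CD3-negative side had the higher CPM of NK genes. By number of cells, Ncr1, Klrd1 or Klrb1c was found in 22 of the 152 CD3-positive and 12 of the 28 CD3-negative cells. All 5 NK receptor genes and all 7 cytotoxic effectors past the floor were at least 2-fold lower in CD3-positive cells, at medians of -2.07 and -1.94. Each of them reached the floor through the CD3-negative group, where it was higher, and list genes below the floor were not counted. Ncr1 was counted 18 times in each group, a log2 ratio of -2.96, because the 28 CD3-negative cells held far fewer UMIs. Gzma was counted 31 times in CD3-positive and 61 times in CD3-negative cells (-3.94), the first in 1 cell and the second in 7, Ccl4 94 and 132 times (-3.45) and Klrd1 stood at -2.07. The Ly49 receptor genes Klra4, Klra8 and Klra9 stood at -3.35, -7.05 and -4.64, though they are near copies of one another on chromosome 6 and how uniquely mapped reads divide among them is uncertain. Leaving out cells with macrophage or fibroblast genes kept 56 cells, 42 of them with CD3. It also lowered the median depth from 2652.5 to 1482.5 UMIs, and the part of depth in the changes was not tested. Gzmb turned to 1.03, Nkg7 to 0.12, Ccl5 to 0.026, Cd163l1 to -0.71, Cd5 to -0.49 and Maf to -0.074. None of the other genes named here that still gave a value reversed. Without the cell that held most of the gene, Gzma stood at -3.13 and Ccl4 at -1.86. In the same way Ccl5 stood at -0.81, Gzmb at -0.034 and Il2rb, of the NK list, at -0.79, each less than 2-fold lower.

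For several genes shared by T cells and ILCs the interval included 0. Il7r was counted 347 and 41 times (0.12, -0.35 to 0.62), Rora stood at 0.04, Ccr2 at 0.01, Thy1 at -0.17 and Il1rl1 at -0.23. Gata3 was lower in CPM in CD3-positive cells, at -0.81 (-1.46 to -0.10). By number of cells, a Gata3 UMI was found in 61 of 152 CD3-positive and 11 of 28 CD3-negative cells. In the untreated tumor Gata3 had 43.5 CPM in CD3-positive and 724 CPM in CD3-negative cells. Of the 28 CD3-negative cells 13 had Il7r but none of Ncr1, Klrd1 and Klrb1c, 11 had one of those NK genes but no Il7r, 1 had both and 3 had neither. In the untreated tumor 7 cells lacked a CD3 UMI and 6 of them had Gata3, and in the progressed tumor both CD3-negative cells had Gata3 and Il7r. The CD3 groups were drawn again after thinning to 1000 UMIs, which gave 135 CD3-positive and 33 CD3-negative cells. Cells that lost their CD3 UMIs in thinning were thus counted as CD3-negative. In these redrawn groups Il7r had 102 UMIs against 28 (756 and 848 CPM) and Gata3 31 against 15 (230 and 455 CPM). Il1rl1 had 23 against 12 (170 and 364 CPM) and Gzma 0 against 15.

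**Figure D4:**
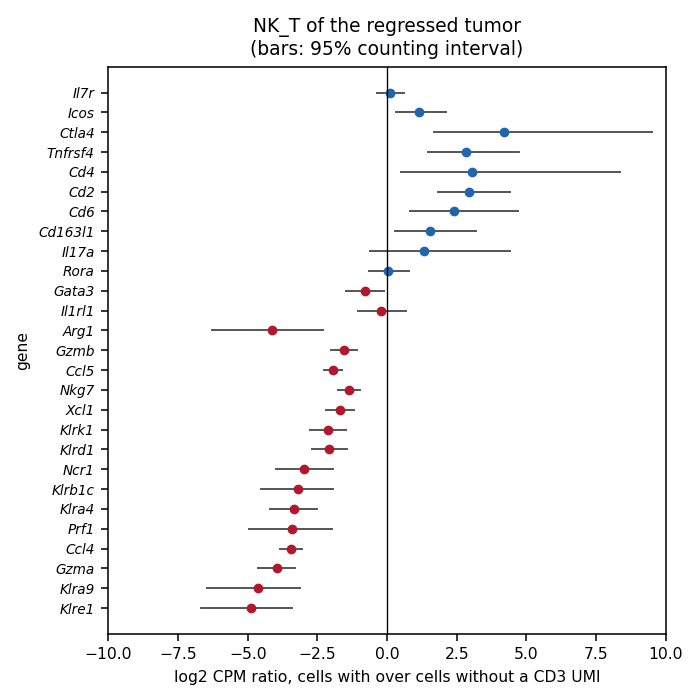
Log2 ratio of CPM in regressed NK_T cells with a CD3 UMI (152) over those without (28) for lymphoid genes, with exact 95% counting intervals as bars and blue points above 0, red points below. Ctla4, Tnfrsf4, Cd4 and Cd2 lie right of 0, Gzma, Prf1, Ncr1 and the Klr genes left of it, and the intervals of Il7r and Rora include 0.

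Between tumors, NK_T cells were compared first in the regressed against the untreated tumor. Of 1763 genes past the floor 19.7% were at least 2-fold higher in the regressed tumor and 4.99% at least 2-fold lower, with a median log2 ratio of 0.31, and the regressed group, which has more cells and so more summed UMIs, can bring in genes at a lower CPM. Of 5 homing genes past the floor 4 were higher and none lower, at a median of 1.96. Ccr2 had 174 CPM (107 to 265) in the untreated and 723 CPM (653 to 798) in the regressed tumor, and Cxcr6 306 CPM (215 to 421) and 706 CPM (637 to 781). Macrophages, which use Ccr2 as well, had 850 CPM of it in the untreated and 676 CPM in the regressed tumor. Klf2, the factor that turns on S1pr1, was at 0 UMIs in the untreated and 221 CPM (183 to 265) in the regressed tumor, and S1pr1 itself at 8.26 and 72.5 CPM. The share of NK_T cells with Cxcr6 had no steady order, at 68.0% in the untreated and 55.6% in the regressed tumor, and at 16.0% (4.54 to 36.1) and 38.1% (30.7 to 45.9) after thinning to 1000 UMIs.

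Il7r was 3.11-fold higher in the regressed tumor, and 45.8% of thinned cells held it against 16.0% in the untreated tumor (70.6% and 44.0% unthinned). Of 15 T cell genes past the floor 7 were higher and none lower, at a median of 0.60, though the ratio of their summed CPM was -0.054 without the cells that held macrophage or fibroblast genes. Of 8 cytotoxic effectors 1 was higher and 4 were lower, at a median of -0.82. Gzmb stood at -1.77 (-2.08 to -1.47), and Gzmc and Gzmf (14:56231397-56241647 and 14:56205263-56211407 on GRCm38, near copies beside Gzmb) had 620 and 1066 CPM in the untreated tumor against 149 and 52.0 CPM. These 2 rested on single cells, since 70 of the 75 untreated Gzmc UMIs and 120 of the 129 untreated Gzmf UMIs lay in 1 cell each. Without the cell that held most of each, Gzmc stood at 1.74 and Gzmf at -0.59. Ccl3 and Ccl4, the other lower effectors beside Gzmb and Gzmc, stood at 0.67 and -0.42 in the same way. Of the 4 lower effectors only Gzmb, at -1.47, then remained at least 2-fold lower. Areg was also lower in the regressed tumor, with 281 CPM (195 to 393) in the untreated against 136 CPM (106 to 171). Without the cell that held most of it, its log2 ratio was -0.41, less than 2-fold.

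Of 8 activation genes past the floor none was higher and 1 lower in the regressed tumor, at a median of -0.19. Nr4a1, an immediate early gene of antigen receptor signalling, had 372 CPM (271 to 498) in the untreated, 98.5 CPM (73.7 to 129) in the regressed and 318 CPM (216 to 452) in the progressed tumor. Rgs1, a brake on chemokine receptors that marks resident T cells, had 975, 611 and 1562 CPM. Genes of the dissociation response, among them other immediate early genes, summed to 5711, 3940 and 4294 CPM in NK_T, and their part in these values was not tested. Icos had 405, 407 and 514 CPM, with intervals that overlap.

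Regulatory T genes past the floor were higher in 2 of 8 and lower in none, at a median of 0.55. Foxp3 had 49.6 CPM (18.2 to 108) in the untreated and 117 CPM (89.9 to 150) in the regressed tumor, and its log2 ratio turned to -0.59 without the cells that held macrophage or fibroblast genes. Type 2 genes past the floor were higher in 2 of 6 and lower in 1, which was Areg, at -0.41 without its top cell. Gata3 had 207, 243 and 247 CPM over the 3 tumors, with intervals that overlap.

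The 5 genes with the highest ratio in regressed over untreated NK_T cells were Defb6 (5.13), Mir6236 (5.09), Tpsb2 (4.87), Cebpb (4.67) and Cma1 (4.42). In macrophages of the same tumors these stood at 3.37, 5.83, 5.27, 0.70 and 3.69. Tpsb2 and Cma1 are mast cell proteases and Defb6 an epithelial defensin, with 175 of its 311 UMIs in 1 NK_T cell. The part of free RNA in these 5 values was not tested. The 5 lowest were Sod3 (-5.48), Gzmf (-4.36), Cxcl12 (-4.11), Gm12216 (-3.68) and Tff1 (-2.74), and 36 of the 70 untreated Cxcl12 UMIs lay in 1 cell.

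In the progressed against the regressed tumor, 6.71% of 1625 genes past the floor were at least 2-fold higher and 18.5% at least 2-fold lower, with a median log2 ratio of -0.22. All 4 homing genes past the floor were at least 2-fold lower, at a median of -1.53, among them Ccr2 at 247 CPM (158 to 367) and Cxcr6 at 247 CPM (158 to 367). Ccr2 was also lower in macrophages, at 320 CPM. Il7r was lower in CPM, at a log2 ratio of -1.61 (-2.28 to -1.0), while the thinned shares of cells with Il7r, 41.2% and 45.8%, were close. Without the cells that held macrophage or fibroblast genes, which left 4 progressed cells, Il7r stood at 0.16 and Cxcr6 at 0.40. Both gamma-delta genes past the floor were lower, and Il17a was at 0 UMIs, which allows up to 30.8 CPM at 3 UMIs over these 17 cells, against 76.2 CPM (54.7 to 103) in the regressed tumor. None of 8 regulatory T genes past the floor differed by 2-fold: Foxp3 had 71.9 CPM (28.9 to 148) and Ctla4 349 CPM (242 to 488), beside 117 CPM (89.9 to 150) and 268 CPM (226 to 315) in the regressed tumor.

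Of 7 type 2 genes past the floor 2 were higher and 2 lower in the progressed tumor. Il13 was counted 27 times in 4 of 17 cells against 7 times in 6 of 180 cells (log2 ratio 4.41, 3.18 to 5.86). Of the 27 UMIs 14 lay in 1 cell and 9 in another, and without the first cell the log2 ratio was 3.43. Untreated NK_T cells held 8 Il13 UMIs in 4 cells. Areg had 534 CPM (399 to 701) in the progressed against 136 CPM (106 to 171) in the regressed tumor. Of 7 cytotoxic effectors 2 were higher and 2 lower. Gzma had 5692 CPM, but all 554 UMIs lay in 1 cell of 10832 UMIs that also held 105 of the 109 Gzmb UMIs. Without the cell with the most UMIs of the gene, the log2 ratio turned from 5.06 to -2.30 for Gzma and from 1.51 to -3.09 for Gzmb.

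Other genes ranked highest in progressed over regressed cells also came from single cells. Sfrp4 (8.39) and Nupr1 (4.54) had 121 of 121 and 104 of 105 UMIs in 1 cell of 7236 UMIs, which held 59 Col1a1 and 85 Col3a1 UMIs, both fibroblast collagens, beside 6 of Cd3e and 30 of Ccl5. All 22 Ccl1 UMIs (6.93) lay in 1 cell of 3952 UMIs that also held 9 of Il13. The 5 lowest were Mir6236 (-4.77), Ccl4 (-4.35), Ckb (-3.91), Gstp-ps (-3.72) and Stxbp3 (-3.70). In macrophages Mir6236 stood at -5.89 and Ccl4 at 2.10, so the lower level of the chemokine Ccl4 was not shared by them.

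In the progressed against the untreated tumor 11.8% of 1060 genes past the floor were at least 2-fold higher and 7.08% at least 2-fold lower, at a median log2 ratio of 0.03. Of 9 T cell genes past the floor 3 were higher and none lower, and of 8 cytotoxic effectors 1 was higher and 3 were lower. Ccl4 (-5.39), Gzmf (at most -5.11), Gzmc (-4.91), Spp1 (-4.86) and Ccl3 (-4.69) ranked lowest, while in macrophages Ccl4 stood at 0.56, Ccl3 at 0.38 and Spp1 at -1.24. In the untreated tumor 25 of 32 Ccl3, 70 of 75 Gzmc and 120 of 129 Gzmf UMIs lay in 1 cell each, and without the top cell of each gene the log2 ratios were -4.78 for Ccl4, at most -1.34 for Gzmf, -1.11 for Gzmc, -2.39 for Spp1 and -2.54 for Ccl3. Gzma (at least 7.84), Sfrp4 (5.65), Cd8b1 (at least 3.94), Pclaf (3.59) and Dut (3.46) ranked highest. One cell of 25009 UMIs held 26 of the 37 Cd8b1, 38 of the 62 Dut and 21 of the 29 Pclaf UMIs, the last 2 being genes of DNA replication.

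**Figure D5:**
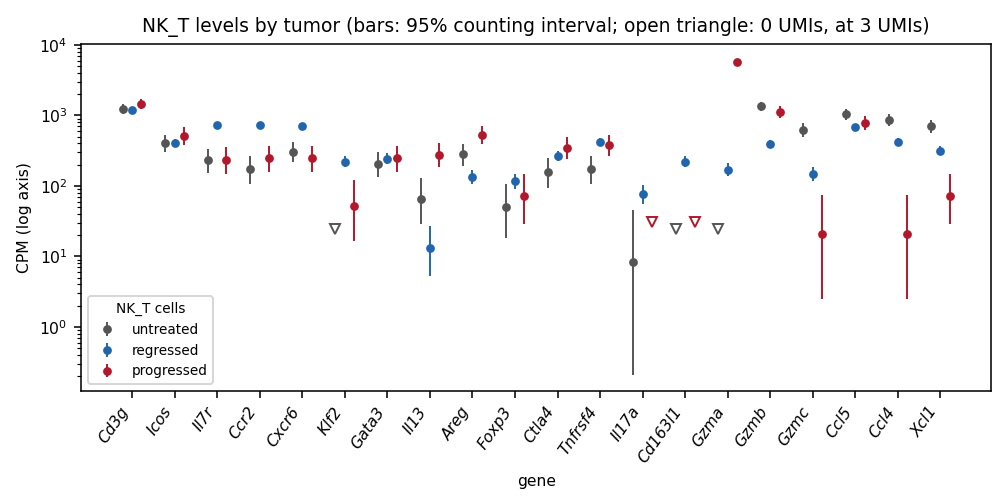
CPM of selected lymphoid genes in NK_T cells of the untreated (25 cells), regressed (180) and progressed (17) tumor on a log axis, with exact Poisson 95% intervals and open triangles for genes at 0 UMIs, drawn at the CPM of 3 UMIs. Icos and Gata3 have overlapping intervals in all 3 tumors, while Il7r, Ccr2 and Cxcr6 are higher in the regressed tumor than in either other tumor.

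Signals of other cells were present in the cluster. Macrophage and monocyte genes summed to 82.6, 329 and 71.9 CPM in untreated, regressed and progressed NK_T cells, against 20113, 25025 and 28044 CPM in the macrophages themselves, and Adgre1 (F4/80) was counted once in 222 cells. Fibroblast genes summed to 6521, 3756 and 5034 CPM in NK_T and to 3346, 4220 and 3769 CPM in macrophages. At least 2 UMIs of each of at least 2 macrophage or fibroblast genes were found in 11 of 25, 124 of 180 and 13 of 17 NK_T cells. Their part in the values above was not tested apart from leaving those cells out.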

How the data were processed

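The authors deposited whole-number counts of UMIs, 1 table per tumor, and a table with the cluster name of each cell, whose tumor and cluster labels are of the other unit and whose totals per cell are counts. Per the study's methods, droplet libraries of transcript 3' ends were aligned to GRCm38 with GSNAP, uniquely mapped sense reads over exons were counted with UMIs collapsed at 1 mismatch, cells under 300 UMIs were left out, and cells were clustered with Seurat 2.2.0. The submitters' processing notes name the same tools. Clusters rich in mitochondrial RNA or dividing cells were set aside in the study and are not compared here, though they count in the shares of all cells.

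Each table held 36530 features. Entrez IDs matched a symbol for 31051 features, and the 5479 others carried 3.74% of UMIs. Table sums exceeded the deposited totals per cell by 5.02%, for a reason that remained unknown. In all 79 features held the same counts as another. No cell ID occurred in more than 1 library (0 of 12670), and droplet barcodes were not used here. No doublet caller was run, and fits without the deepest cells and without cells that held macrophage or fibroblast genes were made instead.

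UMIs were summed per cluster and tumor and divided by the sum over all features. With 1 tumor per condition there was no test, and no cell was treated as a replicate. Genes were compared where the higher group held at least 20 UMIs and 100 CPM, and were counted at a fold of 2 or more. Thinning drew 1000 UMIs per cell without replacement, which left out 12 regressed NK_T cells. Genes named are those of the lymphoid lists with at least 10 UMIs in NK_T or of a defining set, the 10 highest and 10 lowest against NK_T_Cytolytic, the 10 highest against the mean of 5 myeloid clusters, and 5 in each direction per pair of tumors, leaving out haemoglobin, Xist, Y-linked and mitochondrial genes, features with no symbol and features with duplicated counts. Members and lists were chosen with earlier results of these data known. Software was Python 3.11.15, numpy 2.4.6, pandas 2.3.3, scipy 1.17.1, matplotlib 3.10.9, R 4.3.3 and edgeR 4.0.16, the last for TMM scaling only. The interval and ratio code was tested on simulated data. Gene coordinates are those of RefSeq on GRCm38. Some items of the study's design and gene lists are not reported here.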

Additional observations from a re-analysis of the deposited data

Results flagged for a closer look

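Gzmc and Jun had ratios of opposite sign between tumors in NK_T over NK_T_Cytolytic cells, each past 2-fold, and these differences were not tested, since each condition is 1 tumor. For Gzmc, a granzyme gene next to Gzmb, the log2 ratio was 2.57 in the untreated tumor, where 1 cell held 70 of 75 UMIs, and -1.71 in the regressed tumor, where 80 UMIs in NK_T stood against 95 in NK_T_Cytolytic. For Jun, an immediate early gene that also responds to tissue dissociation, it was 2.15 in the untreated tumor (926 against 208 CPM) and -1.38 in the progressed tumor (431 against 1124 CPM).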

How the results depend on the processing

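No paired analysis was possible because each group held 1 tumor, and no replicate could be left out. Over 1232 gene values under alternative settings 1066 kept direction within their interval, 146 moved and 20 reversed, and 41 gave no value. Of 310 list values 233 kept, 68 moved and 9 reversed. Causes were not tested. Both the following alternatives were chosen after seeing the data, the mean CPM filter of 200 and leaving out the cell with the most UMIs of a gene. Counts of genes at least 2-fold higher and lower follow the filter. For NK_T over NK_T_Cytolytic (214 and 308) they were 137 and 61 without cells that held macrophage or fibroblast genes, 488 and 693 with a floor of 10 UMIs and 50 CPM, 1384 and 1683 with no floor, and 58 and 69 with a mean CPM of at least 200. TMM scaling gave 275 and 264, shifting all genes by 0.16, and by 0.12 between CD3-positive and CD3-negative cells. In the same order of settings, regressed over untreated (347 and 88) gave 140 higher, then 948 and 214, 1988 and 1428, and 65 and 52. Progressed over regressed (109 and 301) gave 11 and 116, 271 and 824, 2039 and 1510, and 63 and 49, and 58 higher without the deepest 5% of cells. Progressed over untreated (125 and 75) gave 2 higher, 369 and 297, 1108 and 924, and 65 and 28, and 57 higher without the deepest 5%. CD3-positive over CD3-negative (204 and 24) gave 106 and 3, 503 and 94, 831 and 2243, and 27 higher. Shares of all cells were 0.611%, 4.83% and 0.351%, and the CD3 share without the cells with other genes was 75.0% for regressed and 100% for progressed NK_T cells. Those cells leave 14, 56 and 4 NK_T cells when removed, and log2 ratios then reversed for Foxp3 (-0.59) and Xcl1 (0.084) in regressed over untreated, for Tmem176a (1.41), Il7r (0.16), Xcl1 (0.50) and Cxcr6 (0.40) in progressed over regressed, for Tmem176a (1.0), Tnfrsf4 (-1.49) and Xcl1 (0.58) in progressed over untreated, and for Cd5 (-0.49), Cd163l1 (-0.71), Maf (-0.074), Gzmb (1.03), Nkg7 (0.12) and Ccl5 (0.026) by CD3. List ratios reversed likewise for T cell (-0.054), regulatory T (-0.094) and NK genes (0.023) in regressed over untreated, type 17 (0.072) and NK (0.15) in progressed over regressed, regulatory T (-0.67) and NK (0.17) in progressed over untreated and gamma-delta genes (-0.32) by CD3, and with equal weight per cell for gamma-delta genes (0.016) in progressed over untreated. Without the top cell, Gzmc (1.74) and Ccl3 (0.67) in regressed over untreated and Gzma (-2.30), Nupr1 (-2.07) and Gzmb (-3.09) in progressed over regressed reversed. With 25 and 17 cells, genes with few UMIs in the untreated and progressed tumors were not measurable at this depth.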

Other observations

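Genes of cell division were found in a few NK_T cells. The cell cycle list summed to 339, 281 and 729 CPM in NK_T cells of the untreated, regressed and progressed tumor, against 0, 380 and 173 CPM in NK_T_Cytolytic. Top2a, the topoisomerase of dividing cells, had a UMI in 4 of 25, 17 of 180 and 6 of 17 NK_T cells, and 34 of its 53 regressed UMIs lay in 1 cell. Birc5, a chromosomal passenger protein, had all 10 untreated UMIs in 1 cell.

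Coreceptors of T cells were sparse. In the same order Cd8a had 74.4, 35.3 and 452 CPM in NK_T, and 26 of the 44 progressed UMIs lay in the cell of 25009 UMIs named above. Ifng, the main macrophage-activating cytokine of lymphocytes, was counted 6, 14 and 5 times in NK_T and 0 times in NK_T_Cytolytic, and Il10 5, 10 and 1 times against 0. Tnf had 57.9, 104 and 51.4 CPM in NK_T.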
